A study of Mus with 9 samples.

Results

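Chemokines are small secreted proteins that direct the migration of cells, and they act through receptors coupled to G proteins on the cells that respond. The genes described here are those whose symbol in the deposited count table follows the naming of chemokine ligands (Ccl, Cxcl, Cx3cl and Xcl), of their signalling receptors (Ccr, Cxcr, Cx3cr and Xcr) and of the atypical receptors (Ackr and Ccrl). This naming rule found 71 of the 55421 rows of the table. Of these, 32 were CC ligands, 13 CXC ligands, 2 CX3C or XC ligands, 19 receptors and 5 atypical receptors, and 50 had enough counts to be tested. The other 21 rows, 10 of them without a count in any library, are accounted for at the end.

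The samples were 9 libraries of messenger RNA described as left atrium or atria, from wild-type male C57BL/6J mice that were 8 to 10 weeks old. Sham mice (Sham 1 to 3) had the operation without the ligation and received vehicle. The titles of the Sham libraries carry the suffix AF, which the titles of the MI and MI_ART libraries lack. MI mice (MI 2, MI 3 and MI 4) had a myocardial infarction, produced by tying the left anterior descending coronary artery permanently, and received vehicle. MI_ART mice (MI_ART 1 to 3) had the same infarction and received artesunate, an artemisinin derivative used against malaria, by intraperitoneal injection. The treatment protocol gives the dose as 25 mg/kg daily for 7 days from surgery, while the series design gives 10 mg/kg every other day from 2 days before surgery to day 7. The day of harvest is not given in the sources used here. The labels do not say whether the 3 libraries of a group came from 3 animals, and the tests can only weigh differences against the spread of these libraries, which may be technical.

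In the infarcted heart, chemokines made by resident and arriving cells draw first neutrophils and then monocytes out of the blood. Ccr2 and its ligands are known for the recruitment of inflammatory monocytes, and Cxcr2 and its ligands for that of neutrophils. The atypical receptors bind chemokines without the usual G protein signal and remove or transport them, except Ccrl2, which holds the chemoattractant chemerin at the cell surface.

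Total counts per library ranged from 68046341 to 83685313, and levels are given as CPM, the count of a gene relative to the size of its library after scaling by edgeR's trimmed mean method (TMM). Groups of 3 values always follow the order of the libraries: Sham 1, 2 and 3, then MI 2, 3 and 4, then MI_ART 1, 2 and 3. The libraries differ in their mix of heart muscle. The ratio of the ventricular light chain Myl2 to the atrial light chain Myl7 was 3.64, 17.7 and 6.57 in Sham, 1.87, 2.36 and 0.460 in MI and 5.45, 1.22 and 784 in MI_ART, and Myl7 was at 1.96 CPM in MI_ART 3. The sum of 6 atrial cardiomyocyte markers ran from 1822 to 7476 CPM in Sham, 13504 to 25208 in MI and 1323 to 12540 in MI_ART. Every MI library thus lay above every library of the other groups. Singly, 0 of these 6 genes were called in any comparison. The part of this mix in the chemokine results was not tested. MI 4 stood apart from the other libraries on the second principal component. The counts of changed members are therefore also given without MI 4 and MI_ART 3. Transcript lengths were not at hand, so each gene is compared between libraries and never with another gene by level.

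Chemokine transcripts took a larger share of all counts after infarction. The 71 rows together held 0.0251, 0.0263 and 0.0206% of the counts in Sham, 0.121, 0.116 and 0.131% in MI and 0.105, 0.0682 and 0.117% in MI_ART. All 6 infarcted libraries lay above all 3 Sham libraries, and MI_ART 2 had the lowest share of the infarcted ones. Of the 50 tested members, 26 rose in MI against Sham and 4 fell (edgeR quasi-likelihood test with Benjamini-Hochberg adjustment over 19326 genes, called at an adjusted p under 0.05). Over all tested genes 33.1% were called, 18.8% higher and 14.3% lower. The median log2 fold change of the members was 2.08, and that of all tested genes was 0.04. In MI_ART against Sham, 25 members rose and 3 fell, where 20.3% of all genes were called, 12.9% higher and 7.41% lower. The members' median there was 1.89, or 1.72 when genes without reads in a group take their detection bound, against 0.01 for all genes. All MI libraries lay above all Sham libraries for 28 members and below for 5, as 25.7% and 23.2% of all tested genes did, and in MI_ART this held for 28 and 6 members, against 25.4% and 22.8%. Both comparisons use the same Sham libraries. Without MI 4 and MI_ART 3 the counts were 24 higher and 5 lower in MI, and 24 higher and 3 lower in MI_ART. With libraries scaled by their total counts alone, which moved the median of all genes to 0.88 in MI and 0.75 in MI_ART, 34 members were higher and 1 lower in MI, and 31 were higher and 0 lower in MI_ART. The sizes and calls of the members that fell are therefore relative to the bulk of the transcripts. Their log2 fold changes stayed below 0 with total counts, from -1.26 to -0.17 in MI and from -0.71 to -0.06 in MI_ART. The member still called lower in MI was Ccl11 (adjusted p = 0.0112).

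**Figure D1:**
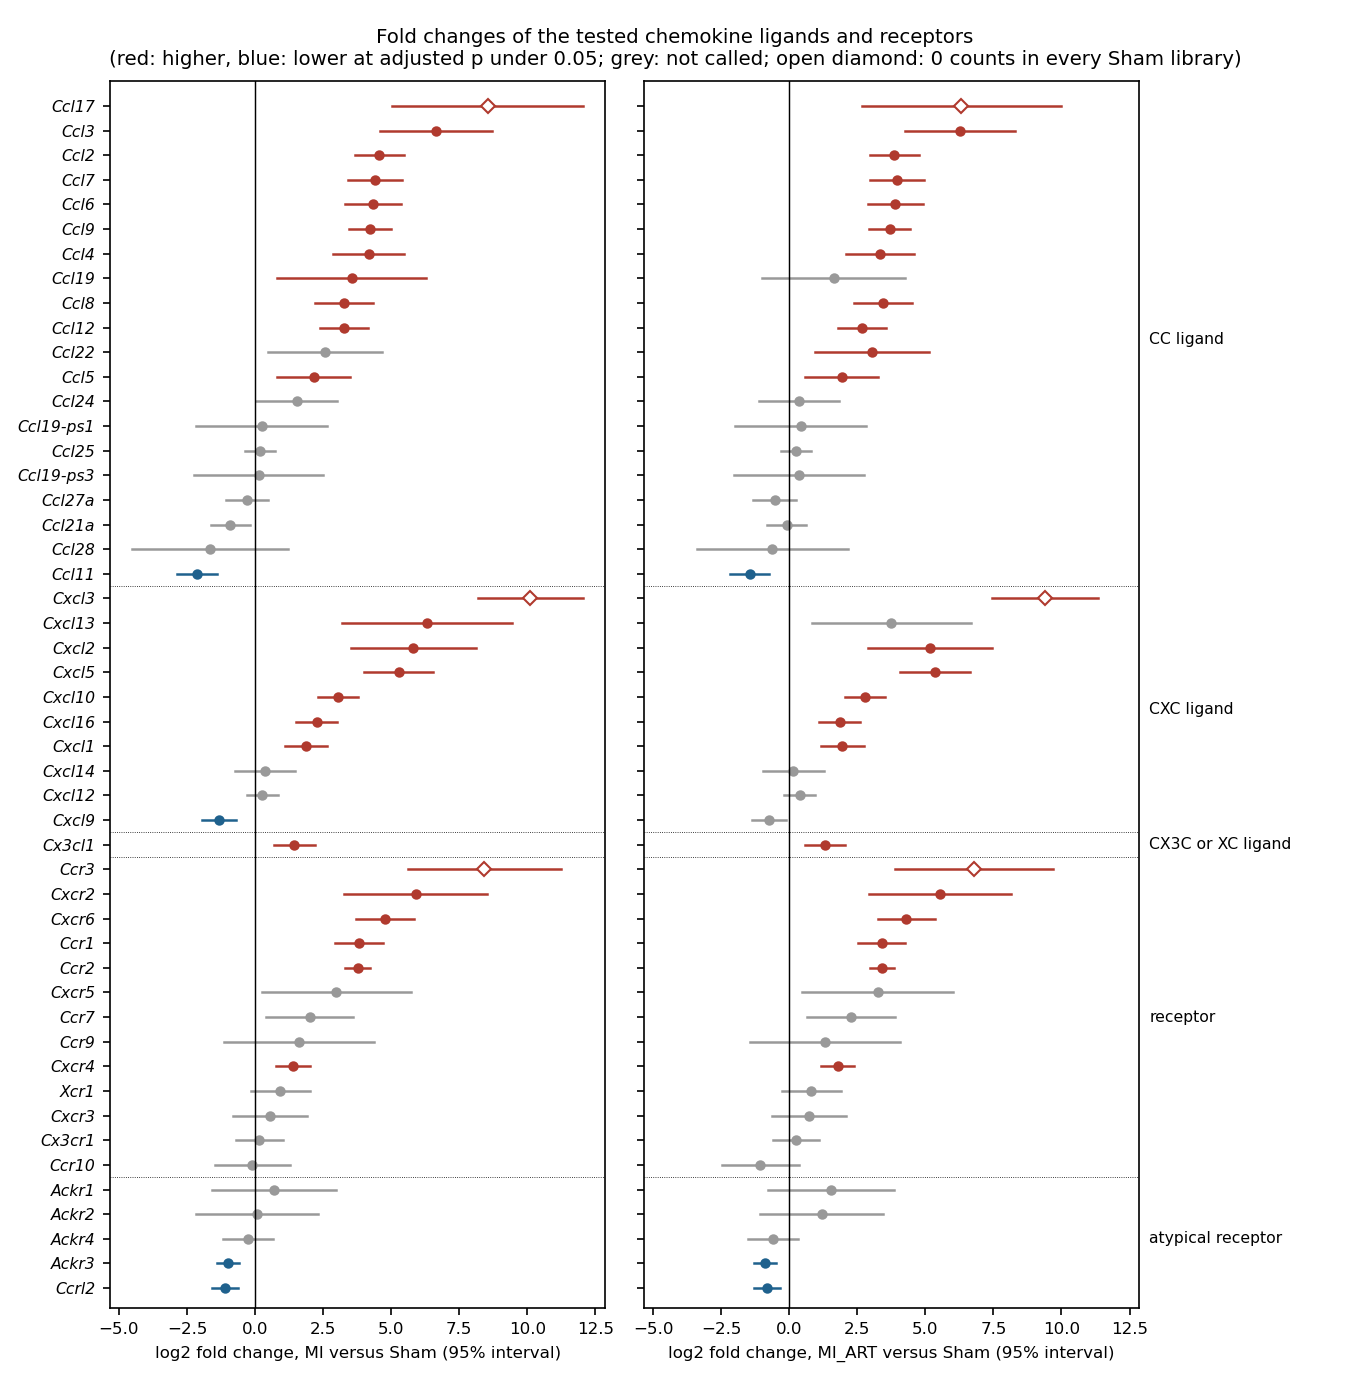
Log2 fold change of 49 of the 50 tested members in MI against Sham (left) and MI_ART against Sham (right), with its 95% interval, grouped by role. Red marks genes called higher, blue genes called lower and grey genes not called, and open diamonds mark Cxcl3, Ccl17 and Ccr3, which had 0 counts in every Sham library and whose fitted values are no bound. Most ligands and receptors of the inflammatory axes lie to the right of 0 in both panels, while Ccl11, Ackr3 and Ccrl2 are blue in both.

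By role, 11 of 20 tested CC ligands rose and 1 fell in MI. Of 10 CXC ligands, 7 rose and 1 fell, and the single tested CX3C ligand rose. Of 14 receptors, 7 rose and 0 fell, and of 5 atypical receptors 0 rose and 2 fell. In MI_ART the CC ligands gave 11 higher and 1 lower, the CXC ligands 6 higher and 0 lower, the receptors 7 higher and 0 lower, and the atypical receptors 0 higher and 2 lower.

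Markers of leukocytes moved with these groups. The summed level of Ptprc, Coro1a, Laptm5 and Cd53, 4 genes of leukocytes in general, was 38.3, 35 and 42.9 CPM in Sham, 306, 326 and 355 in MI and 351, 186 and 326 in MI_ART. The sum of 10 macrophage and monocyte markers ran from 292 to 469 CPM in Sham, from 2285 to 2497 in MI and from 1533 to 3034 in MI_ART. Singly, 8 of these 10 were called higher and 1 lower in MI, and 8 higher and 0 lower in MI_ART. The sum of 8 neutrophil markers ran from 1.32 to 1.42 CPM in Sham, from 43.5 to 105 in MI and from 17 to 80.7 in MI_ART. Of these markers, Mmp8, Ly6g and Ngp were at 0 in every Sham library. Ngp and Elane were at 0 in every MI library, and Elane in every MI_ART library. Singly, 5 of the 8 could be tested, of which 5 were called higher in MI and 4 in MI_ART, and 0 lower. For each of these 3 sums the infarcted libraries lay above Sham without overlap (two-sided exact permutation test, p = 0.1, the smallest that 3 against 3 allows). Their part in the chemokine results was not tested, and in bulk tissue more cells of a type and more RNA per cell cannot be told apart.

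The ligands of Ccr2 and the receptor itself rose in both infarcted groups. Ccl2, the main attractant of inflammatory monocytes, was at 2.27, 1.28 and 1.51 CPM in Sham, 24.2, 42.5 and 53.7 in MI and 34.3, 16.6 and 22.8 in MI_ART. Its infarcted libraries all lay above Sham, and its mean was 23.8-fold higher in MI (log2 fold change 4.57, SE 0.41, adjusted p = 0.00010) and 14.6-fold higher in MI_ART (log2 fold change 3.86, SE 0.40, adjusted p = 0.000263). Ccl7, a further ligand of Ccr2, was at 2.32, 0.948 and 1.99 CPM in Sham, 23.8, 40.8 and 46.9 in MI and 40.2, 18.7 and 23 in MI_ART. It too was separated from Sham in every infarcted library, with log2 fold changes of 4.40 (SE 0.45, adjusted p = 0.000144) in MI and 3.96 (SE 0.44, adjusted p = 0.000357) in MI_ART. Ccl12, a mouse Ccr2 ligand, was at 1.6, 0.968 and 0.862 CPM in Sham, 5.73, 12 and 15.3 in MI and 8.71, 6.49 and 6.68 in MI_ART. Its lowest infarcted value, in MI 2, was still above the highest Sham value, and its log2 fold changes were 3.26 (SE 0.40, adjusted p = 0.000339) and 2.67 (SE 0.39, adjusted p = 0.00145).

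Ccr2, the receptor that marks inflammatory monocytes, was at 4.13, 4.72 and 6.59 CPM in Sham, 71, 69.2 and 69.8 in MI and 51.9, 54.8 and 57.6 in MI_ART. The libraries of each infarcted group lay close together, and Ccr2 rose 13.6-fold in MI (log2 fold change 3.77, SE 0.20, adjusted p = 2.56e-05) and 10.6-fold in MI_ART (log2 fold change 3.41, SE 0.20, adjusted p = 4.07e-05). Every MI_ART library lay below every MI library, but the difference was not called (log2 fold change -0.35, 95% interval -0.76 to 0.05, adjusted p = 0.732).

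Ccr1, a receptor of monocytes, macrophages and neutrophils, also rose, as did its ligands and related CC ligands. Ccl6 was at 11.7, 9.7 and 12.2 CPM in Sham, 319, 193 and 164 in MI and 186, 71.4 and 243 in MI_ART. Ccl9 was at 6.01, 6.79 and 7.1 CPM in Sham, 144, 97.9 and 126 in MI and 89.6, 46.7 and 120.4 in MI_ART. Both are mouse ligands of Ccr1, and for both MI_ART 2 was the lowest infarcted library and still far above Sham. Ccl6 had log2 fold changes of 4.33 (SE 0.46, adjusted p = 0.000166) in MI and 3.90 (SE 0.45, adjusted p = 0.000409) in MI_ART. For Ccl9 these were 4.21 (SE 0.34, adjusted p = 7.61e-05) and 3.69 (SE 0.34, adjusted p = 0.000183).

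Ccl3, a macrophage inflammatory protein that binds Ccr1, was at 0.0922, 0 and 0 CPM in Sham, 2.28, 3.85 and 3.84 in MI and 3.64, 1.29 and 2.77 in MI_ART. Of the Sham libraries, Sham 1 alone held its reads, and the fitted value in MI moved to 11.01 without it. Ccl4, a related macrophage inflammatory protein whose annotated locus overlaps that of Ccl3, was at 0.147, 0.395 and 0.134 CPM in Sham, 2.28, 3.56 and 6.36 in MI and 2.85, 1.48 and 2.55 in MI_ART. The strand setting of the counting is not given in the sources used here, so reads of Ccl3 and Ccl4 may be mixed. Ccl3 rose by log2 6.64 (SE 0.92, adjusted p = 0.000595) in MI and 6.27 (SE 0.91, adjusted p = 0.00134) in MI_ART, and all infarcted libraries lay above Sham. Ccl4 rose by log2 4.17 (SE 0.58, adjusted p = 0.000609) and 3.34 (SE 0.56, adjusted p = 0.00301), again without overlap, and without Sham 2 the values were 4.83 and 4.01. Ccl5, made by T cells and platelets among others, was at 0.571, 0.178 and 0.172 CPM in Sham, 1.16, 0.911 and 2.04 in MI and 1.05, 0.75 and 1.73 in MI_ART. Its groups were separated by less, with log2 fold changes of 2.15 (SE 0.60, adjusted p = 0.0215) and 1.93 (SE 0.60, adjusted p = 0.0485). Without MI 4 the call in MI was lost (log2 fold change 1.75, adjusted p = 0.0595), as it was without Sham 2 or Sham 3, and without Sham 1 its value there was 2.96. In MI_ART the call was lost without any one of Sham 2, Sham 3, MI 2, MI 3 and the MI_ART libraries (adjusted p from 0.053 to 0.164), and its value was 2.74 without Sham 1. The replicate block also ended the call in MI (adjusted p = 0.057), and limma-voom (adjusted p = 0.0894) and fitting without a filter on low counts (adjusted p = 0.0734) ended that in MI_ART.

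Ccr1 was at 2.25, 1.82 and 3.68 CPM in Sham, 34.9, 43.4 and 30.4 in MI and 37.4, 14.8 and 29.6 in MI_ART. MI_ART 2 was again the lowest infarcted library. Its log2 fold changes were 3.81 (SE 0.39, adjusted p = 0.000152) in MI and 3.40 (SE 0.39, adjusted p = 0.000395) in MI_ART.

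The ligands of Cxcr2, which attract neutrophils, rose together with the receptor. Cxcl5 was at 0.461, 0.217 and 0.632 CPM in Sham, 17, 24.2 and 9.89 in MI and 19.9, 8.45 and 25.3 in MI_ART. Cxcl1 was at 1.64, 1.84 and 2.36 CPM in Sham, 8.18, 8.84 and 4.27 in MI and 7.13, 5.28 and 10.2 in MI_ART. Both were above Sham in all 6 infarcted libraries, and in MI the library MI 4 was the lowest for both. Cxcl5 rose by log2 5.28 (SE 0.57, adjusted p = 0.000186) in MI and 5.35 (SE 0.57, adjusted p = 0.000299) in MI_ART. Cxcl1, present in every Sham library, rose by log2 1.87 (SE 0.35, adjusted p = 0.0029) and 1.96 (SE 0.35, adjusted p = 0.00414).

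Cxcl2 was at 0, 0 and 0.134 CPM in Sham, 2.92, 3.48 and 1.42 in MI and 1.54, 0.925 and 2.53 in MI_ART. It was without a read in Sham 1 and Sham 2, so its fitted value rests on Sham 3 (10.66 in MI without it). It rose by log2 5.82 (SE 1.03, adjusted p = 0.00219) in MI and 5.17 (SE 1.01, adjusted p = 0.00649) in MI_ART. Cxcl3 was at 1.55, 2.11 and 1.86 CPM in MI and 1.51, 0.663 and 1.22 in MI_ART, and had no read in any Sham library. With Sham set at a floor of 3 counts per library, it was at least 32.1-fold higher in MI (adjusted p = 0.000166) and at least 19.7-fold higher in MI_ART (adjusted p = 0.000382). This bound covers counting error only. Cxcr2, the receptor on neutrophils, was at 0.221, 0 and 0 CPM in Sham, 3.52, 3.52 and 6.7 in MI and 5.86, 0.725 and 4.09 in MI_ART. The libraries followed the summed neutrophil markers at their ends: MI 4 was the highest and MI_ART 2 the lowest infarcted library for both. Cxcr2 rose by log2 5.90 (SE 1.18, adjusted p = 0.00405) and 5.53 (SE 1.16, adjusted p = 0.00919), with the single Sham value above 0 in Sham 1 (11.47 in MI without it). By limma-voom neither call was made (adjusted p = 0.0761 and 0.146).

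**Figure D2:**
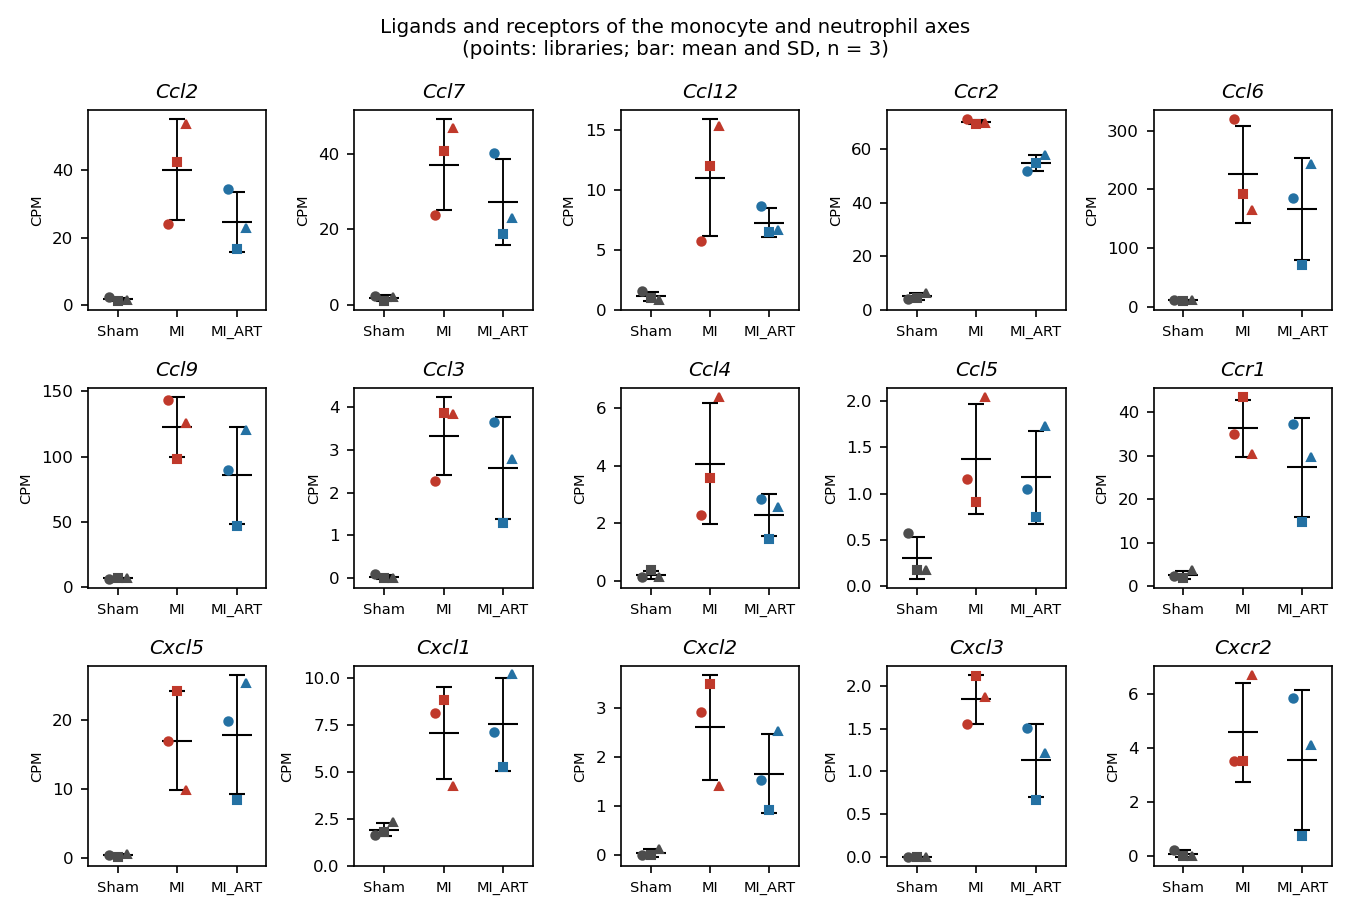
Level in CPM (vertical axis, from 0, own scale in each panel) of 15 members, namely Ccr2, Ccr1 and Cxcr2 with CC and CXC ligands of monocytes and neutrophils, in Sham, MI and MI_ART. Circles, squares and triangles are the 3 libraries of a group in their order, and the bars give the mean and SD. Every infarcted library lies above every Sham library in each panel, and MI_ART 2, the blue square, is the lowest MI_ART library in every panel but that of Ccr2.

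Of the interferon-induced ligands of Cxcr3, the receptor of activated T cells and natural killer cells, Cxcl10 and Cxcl9 moved in opposite directions in MI. Cxcl10 was at 1.22, 1.58 and 1.24 CPM in Sham, 7.13, 12.7 and 13.5 in MI and 7.98, 7.41 and 12.5 in MI_ART. All infarcted libraries lay above Sham, and it rose by log2 3.04 (SE 0.32, adjusted p = 0.000173) in MI and 2.79 (SE 0.32, adjusted p = 0.000413) in MI_ART. Its annotated locus overlaps Art3. Cxcl9 was at 8.39, 7.15 and 14.5 CPM in Sham, 4.08, 3.84 and 4.02 in MI and 4.9, 6.48 and 6.66 in MI_ART. It fell by log2 1.33 in MI (SE 0.28, adjusted p = 0.0053), with every MI library below every Sham library. In MI_ART it lay below Sham and above MI in every library, and neither difference was called (log2 fold change -0.74 against Sham, adjusted p = 0.0905, and 0.60 against MI, 95% interval -0.02 to 1.21, adjusted p = 0.721). Scaled by total counts, Cxcl9 lost its call in MI and its value in MI_ART against Sham turned to 0.04. Cxcr3 itself was at 0.147, 0.612 and 0.46 CPM in Sham, 0.456, 0.60 and 0.733 in MI and 0.864, 0.338 and 0.801 in MI_ART and was not called, with an interval of -0.81 to 1.91 in MI. Ifng, which encodes the usual inducer of Cxcl9, had 8 counts in MI 4 and no read in any other library.

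Cxcl16, a ligand made in membrane-bound and soluble form by macrophages, was at 12.7, 6.54 and 13.1 CPM in Sham, 37.4, 42.6 and 75.9 in MI and 40, 32.7 and 44.3 in MI_ART. Its receptor Cxcr6, found on T cells and natural killer T cells, was at 0.221, 0.276 and 0.651 CPM in Sham, 6.47, 14.8 and 10.5 in MI and 8.75, 8.05 and 5.91 in MI_ART. Neither overlapped Sham in any infarcted library. Cxcl16 rose by log2 2.27 (SE 0.34, adjusted p = 0.000893) in MI and 1.85 (SE 0.33, adjusted p = 0.00427) in MI_ART. Cxcr6 rose by log2 4.78 (SE 0.48, adjusted p = 0.000134) and 4.30 (SE 0.47, adjusted p = 0.000325), or 5.40 and 4.92 without Sham 3. Each has an overlapping neighbour, Zmynd15 for Cxcl16 and Fyco1 for Cxcr6, and was counted with unknown strand. The sum of 8 T and natural killer cell markers ran from 1.40 to 1.93 CPM in Sham, from 1.86 to 3.37 in MI and from 2.20 to 4.04 in MI_ART.

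Cxcr4, the receptor of Cxcl12 on many leukocytes, was at 5.99, 5.17 and 7.39 CPM in Sham, 14.7, 17.6 and 16.4 in MI and 23.4, 13 and 27.2 in MI_ART. It rose by log2 1.39 (SE 0.27, adjusted p = 0.00378) in MI and 1.78 (SE 0.28, adjusted p = 0.00194) in MI_ART, with no overlap with Sham. Cxcl12, made by stromal and endothelial cells, was at 85.6, 103 and 55.8 CPM in Sham, 83.4, 87.2 and 124 in MI and 109, 87.7 and 121 in MI_ART. Its groups overlapped, and it was not called (95% interval of the log2 fold change -0.30 to 0.83 in MI and -0.19 to 0.94 in MI_ART). Scaled by total counts it was called higher in both (log2 fold change 1.09, adjusted p = 0.0116 in MI, and 1.10, adjusted p = 0.015 in MI_ART).

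Ackr3, the atypical receptor that removes Cxcl12, was at 103, 101 and 96.7 CPM in Sham, 59.1, 46.4 and 44.1 in MI and 51, 64.3 and 46.1 in MI_ART. Every infarcted library lay below Sham, and it fell to a mean 2.01-fold lower in MI (log2 fold change -1.0, SE 0.18, adjusted p = 0.00231) and 1.86-fold lower in MI_ART (log2 fold change -0.90, SE 0.18, adjusted p = 0.00716). Ccrl2 was at 13.6, 17.6 and 19.8 CPM in Sham, 8.89, 8.21 and 6.81 in MI and 7.88, 10.3 and 10.9 in MI_ART. It too lay below Sham in every infarcted library, with log2 fold changes of -1.09 (SE 0.22, adjusted p = 0.00381) and -0.81 (SE 0.21, adjusted p = 0.0244). Scaled by total counts, neither gene was called in either comparison. Marker sums of some other cells lay below Sham in every infarcted library too, while those of fibroblasts and activated fibroblasts lay above. The part of these cells in the lower levels of Ackr3, Ccrl2 and Ccl11 was not tested. The sum of 5 smooth muscle and pericyte markers ran from 1219 to 1478 CPM in Sham, 399 to 511 in MI and 642 to 795 in MI_ART. The sum of 4 ventricular cardiomyocyte markers ran from 7573 to 8438 CPM, 1654 to 3029 and 2920.0 to 4471 in the same order. The sum of 6 fibroblast markers ran from 1157 to 1454, 1749 to 2366 and 1839 to 1888 CPM. That of 4 activated fibroblast markers ran from 192 to 707, 1573 to 2021 and 1193 to 1424 CPM. That of 6 blood endothelial markers ran from 656 to 693, 587 to 869 and 592 to 615 CPM. It overlapped Sham in MI and lay below Sham in MI_ART. Singly, 3 of the 5 smooth muscle and pericyte genes were called lower in each infarcted group, as were 2 of the 4 ventricular genes. In both lists 0 were called higher. Of the 6 fibroblast genes, 3 were called higher and 1 lower in MI, and 2 higher and 0 lower in MI_ART. Of the 4 activated fibroblast genes, 3 were called higher and 0 lower in each. Of the 6 blood endothelial genes, 1 was called lower in MI and 0 in MI_ART. The call of Ccrl2 in MI_ART was also lost without any one of Sham 2, Sham 3 and the MI_ART libraries (adjusted p from 0.0535 to 0.114). Ackr4, which removes Ccl19, Ccl21 and Ccl25, was at 6.84, 4.98 and 8.33 CPM in Sham, 4.49, 7.29 and 5.08 in MI and 1.84, 5.4 and 6.05 in MI_ART. Its groups overlapped. Ackr1, which binds many inflammatory chemokines on venular endothelium and red cells, was at 0.664, 0.158 and 0.191 CPM in Sham, 0.216, 0.386 and 1.05 in MI and 2.44, 0.213 and 0.296 in MI_ART, with MI_ART 1 above the rest. Ackr2, which removes inflammatory CC chemokines, was at 0.129, 1.18 and 0.709 CPM in Sham, 0.262, 1.61 and 0.259 in MI and 0.284, 2.43 and 1.92 in MI_ART and varied within each group. None of these 3 was called (adjusted p from 0.345 to 0.961 for Ackr1 and Ackr2 against Sham, and 0.67 in MI and 0.358 in MI_ART for Ackr4). For all 3 the sign against Sham turned in 1 or more alternative settings.

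Cx3cl1, a membrane-bound ligand of endothelium, was at 4.92, 6.62 and 3.98 CPM in Sham, 9.75, 11.5 and 21 in MI and 16.5, 10.9 and 11 in MI_ART. It rose by log2 1.45 (SE 0.33, adjusted p = 0.00846) in MI and 1.31 (SE 0.33, adjusted p = 0.0211) in MI_ART, and all infarcted libraries lay above Sham. The call in MI_ART was lost without Sham 1, Sham 3 or MI_ART 1 (adjusted p from 0.0707 to 0.0909). Its receptor Cx3cr1, found on patrolling monocytes and resident macrophages, was at 6.08, 3.24 and 8.0 CPM in Sham, 4.57, 6.62 and 8.08 in MI and 10, 4.96 and 5.63 in MI_ART. These values overlapped between all groups, and the 95% intervals of the log2 fold change were -0.71 to 1.01 in MI and -0.61 to 1.11 in MI_ART. Scaled by total counts it was called higher in MI (log2 fold change 1.04, adjusted p = 0.0401).

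Among the ligands of eosinophil and type 2 axes, Ccl11 (eotaxin, a ligand of Ccr3) was at 5.0, 3.85 and 4.5 CPM in Sham, 0.82, 0.826 and 1.42 in MI and 1.21, 1.86 and 1.79 in MI_ART. No infarcted library reached Sham, and its mean was 4.35-fold lower in MI (log2 fold change -2.12, SE 0.33, adjusted p = 0.00112) and 2.75-fold lower in MI_ART (log2 fold change -1.46, SE 0.32, adjusted p = 0.0117). Without MI_ART 1 the call in MI_ART was lost (adjusted p = 0.055), as it was with scaling by total counts (log2 fold change -0.71, adjusted p = 0.114). Ccl24, the other tested Ccr3 ligand, was at 2.88, 1.92 and 1.23 CPM in Sham, 10.2, 3.24 and 4.0 in MI and 2.34, 0.70 and 4.64 in MI_ART. It was above Sham in every MI library without passing the test (adjusted p = 0.105, against 0.0429 by DESeq2 and 0.0165 with scaling by total counts), and overlapped Sham in MI_ART. Its log2 fold change in MI was 1.53, and 0.85 without MI 2, its highest library (adjusted p = 0.363). Ccr3 had no read in Sham and was at 0.865, 0.536 and 0.302 CPM in MI and 0.247, 0.10 and 0.197 in MI_ART. It was at least 9.9-fold higher in MI (adjusted p = 0.00181) and at least 3.16-fold higher in MI_ART (adjusted p = 0.00949), all from low counts.

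Ccl8, a ligand of Ccr8 in mice, was at 0.83, 1.54 and 1.88 CPM in Sham, 10.1, 8.21 and 23 in MI and 10.3, 16.4 and 19.7 in MI_ART. It rose by log2 3.28 (SE 0.48, adjusted p = 0.00077) in MI and 3.45 (SE 0.48, adjusted p = 0.0011) in MI_ART without overlap with Sham, and by 2.69 in MI without MI 4. Ccl17, a ligand of Ccr4, had no read in Sham and was at 0.296, 0.182 and 1.38 CPM in MI and 0.148, 0.10 and 0.148 in MI_ART. It was at least 10.8-fold higher in MI (adjusted p = 0.0046) and at least 2.3-fold higher in MI_ART (adjusted p = 0.0311), and MI 4 alone was above 1 CPM. Its call in MI held without MI 4 (adjusted p = 0.00917), while that in MI_ART was lost without any one of the Sham or MI_ART libraries (adjusted p from 0.0536 to 0.0798) and by limma-voom (adjusted p = 0.158). Ccl22, the other Ccr4 ligand, was at 0.0737, 0.079 and 0.0766 CPM in Sham, 0.0911, 0.60 and 0.70 in MI and 0.716, 0.15 and 1.06 in MI_ART. MI 2 and MI_ART 2 were close to Sham, and it was called in MI_ART (log2 fold change 3.04, SE 0.94, adjusted p = 0.0472) but not in MI (log2 fold change 2.58, SE 0.93, adjusted p = 0.0585). It was called in MI without MI 2 (adjusted p = 0.0211) or MI_ART 2 (adjusted p = 0.0395), by DESeq2 (adjusted p = 0.024) and with scaling by total counts (adjusted p = 0.013). The call in MI_ART was lost without any one of the Sham libraries, MI 3, MI_ART 1 and MI_ART 3 (adjusted p from 0.0679 to 0.157), by limma-voom (adjusted p = 0.273) and without a filter on low counts (adjusted p = 0.0697). The difference between MI_ART and MI was not called (95% interval -1.38 to 2.32, adjusted p = 0.912).

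The homeostatic ligands of lymphoid tissue varied widely between libraries. Cxcl13, the B cell attractant that binds Cxcr5, was at 0.0922, 0.237 and 0 CPM in Sham, 2.46, 2.48 and 21.2 in MI and 0.543, 0.50 and 3.41 in MI_ART. MI 4 was far above all other libraries, and there the sum of 4 B cell markers was also highest, at 14 CPM against 4.46 and 4.64 in the other MI libraries. Whether the B cell markers have a part in it was not tested. Cxcl13 was called in MI (log2 fold change 6.30, SE 1.40, adjusted p = 0.00693) and not in MI_ART (log2 fold change 3.75, SE 1.31, adjusted p = 0.0718), and no call was made between MI_ART and MI (adjusted p = 0.716). Without MI 4 it was still called in MI (log2 fold change 4.48, adjusted p = 0.0181), and it was then called in MI_ART too (adjusted p = 0.0317). It was also called in MI_ART with scaling by total counts (adjusted p = 0.0244) and in a fit of those 2 groups alone (adjusted p = 0.0493). By limma-voom the call in MI was lost (adjusted p = 0.147), and without MI_ART 3 the value in MI_ART was 2.24 (adjusted p = 0.279). Without Sham 2 its value in MI was 7.49. Cxcr5 was at 0, 0 and 0.153 CPM in Sham, 0.205, 0.29 and 0.754 in MI and 0.432, 0.25 and 0.814 in MI_ART and was not called (adjusted p = 0.0895 in MI), but was without Sham 3, the single Sham library that held its reads (adjusted p = 0.0119 in MI and 0.0183 in MI_ART). DESeq2 called it in both comparisons (adjusted p = 0.0316 and 0.0258), as did scaling by total counts (adjusted p = 0.0219 and 0.0242).

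Ccl19, which guides dendritic cells and naive T cells through Ccr7, was at 0.277, 0.158 and 0 CPM in Sham, 0.182, 0.976 and 3.99 in MI and 0.642, 0.45 and 0.271 in MI_ART. MI 4 held most of it, MI 2 overlapped Sham, and the call in MI (log2 fold change 3.55, SE 1.22, adjusted p = 0.0489) was lost in 13 of 18 alternative settings, without MI 4 among them (log2 fold change 1.99, adjusted p = 0.231). Ccl21a, the lymphatic ligand of Ccr7, was at 33.2, 33.8 and 28.1 CPM in Sham, 15.8, 9.26 and 25.4 in MI and 24.2, 28 and 36.8 in MI_ART. Every MI library lay below Sham and MI_ART overlapped Sham, but neither difference was called (adjusted p = 0.0533 in MI and 0.709 for MI_ART against MI). Without MI 4, the highest of the MI libraries, Ccl21a was called lower in MI (log2 fold change -1.34, adjusted p = 0.00484). It was also called lower in MI with the replicate block (adjusted p = 0.013), by DESeq2 (adjusted p = 0.0261), by limma-voom (adjusted p = 0.0335) and with the stricter filter (adjusted p = 0.0455). Scaled by total counts, Ccl21a was nearly level with Sham in MI (log2 fold change -0.07, adjusted p = 0.876). The mouse genome holds near-identical copies of Ccl21, and the sum over its rows was 31.7 ± 3.14 CPM (SD, n = 3) in Sham, 16.8 ± 8.09 in MI and 31.1 ± 5.31 in MI_ART. How reads were split among copies is not given in the sources used here. Ccr7 was at 0.221, 0.079 and 0.46 CPM in Sham, 0.421, 1.03 and 1.63 in MI and 1.43, 0.65 and 1.62 in MI_ART and missed the threshold in both comparisons (adjusted p = 0.0548 and 0.051), which it passed without MI 2 (adjusted p = 0.0312 and 0.0419) or without Sham 3 (adjusted p = 0.038 and 0.0456), and in MI_ART also without MI 4 (adjusted p = 0.0361) or MI_ART 2 (adjusted p = 0.0482). DESeq2, scaling by total counts, the stricter filter on low counts and the replicate block also called Ccr7 higher in both comparisons. The sum of 4 lymphatic endothelial markers ran from 64 to 86.4 CPM in Sham, 52 to 68 in MI and 65.3 to 78.6 in MI_ART. This sum joins genes that moved in opposite directions. Of the 4, 1 was called higher and 2 lower in MI, and 1 higher and 0 lower in MI_ART.

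**Figure D3:**
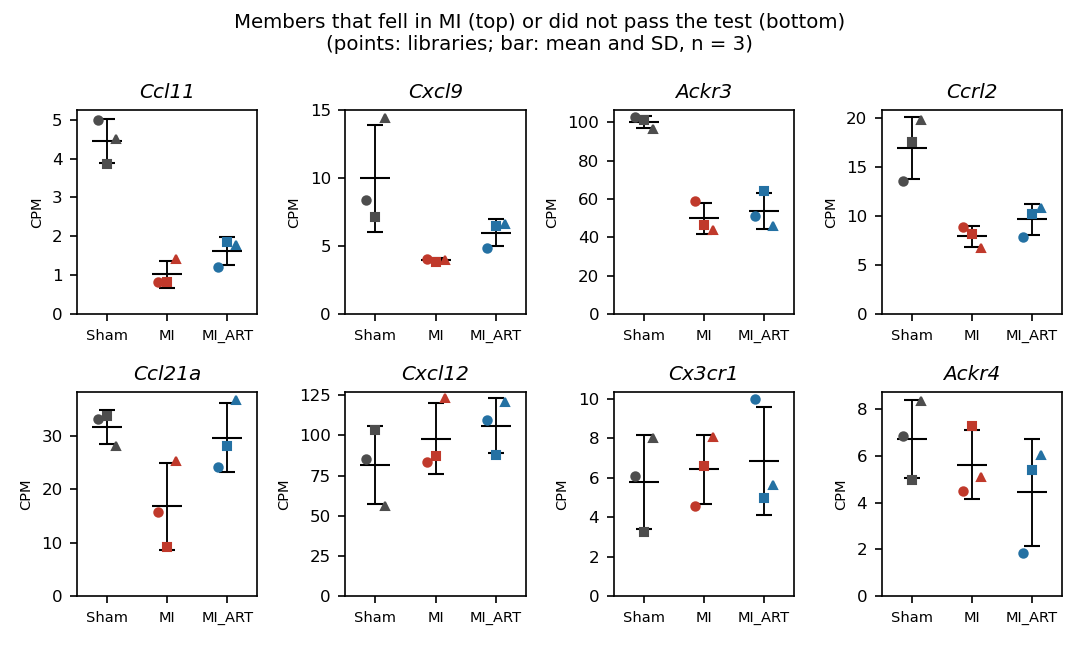
Level in CPM (vertical axis, from 0, own scale in each panel) of the 4 members that fell in MI (Ccl11, Cxcl9, Ackr3 and Ccrl2) and of 4 that did not pass the test (Ccl21a, Cxcl12, Cx3cr1 and Ackr4). Circles, squares and triangles are the 3 libraries of a group in their order, and the bars give the mean and SD. The top row shows MI below Sham without overlap, and in the bottom row only Ccl21a does so.

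The remaining tested members were not called in any comparison of the main analysis. Cxcl14 was at 9.03, 5.79 and 2.97 CPM in Sham, 4.08, 5.82 and 13.1 in MI and 9.23, 5.56 and 4.91 in MI_ART. Ccl25 was at 2.36, 1.84 and 1.91 CPM in Sham, 2.33, 2.23 and 2.31 in MI and 2.15, 2.4 and 2.68 in MI_ART. Ccl27a was at 3.72, 5.0 and 6.45 CPM in Sham, 3.31, 2.58 and 6.33 in MI and 3.28, 3.43 and 3.72 in MI_ART. None of these was called against Sham, and their 95% intervals in MI were -0.74 to 1.48, -0.39 to 0.73 and -1.08 to 0.46 on the log2 scale. Xcr1, the receptor of cross-presenting dendritic cells, was at 0.719, 0.395 and 1.19 CPM in Sham, 0.843, 1.43 and 2.11 in MI and 1.15, 1.51 and 1.38 in MI_ART. Scaled by total counts, Ccl25 and Xcr1 were called higher in MI (adjusted p = 0.00867 and 0.00906) and in MI_ART (adjusted p = 0.0136 and 0.0222). Ccl28, Ccr9, Ccr10 and the pseudogenes Ccl19-ps1 and Ccl19-ps3 stayed under 1 CPM in every library. At such counts only large changes could be detected.

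Between MI_ART and MI, 0 of 50 members were called by edgeR, where 0.0103% of all tested genes were (2 genes, both lower). DESeq2 called 0 members as well and 0.457% of all genes. At an unadjusted p under 0.05, 3 members passed, against 6.96% of all genes. These were Ccl21a (unadjusted p = 0.0294, higher in MI_ART), Ccl17 (unadjusted p = 0.0422) and Cxcl13 (unadjusted p = 0.044), the last 2 lower. The median log2 fold change of the members was -0.22, and it was 0.02 without MI 4. The libraries of both groups did not overlap for 6 members: Cxcl9 was higher in MI_ART, while Ccl17, Cxcl3, Ccr10, Ccr3 and Ccr2 were lower. Among all tested genes 7.38% were separated in the upward and 6.52% in the downward direction. For Ccl2 the 95% interval of the difference was -1.49 to 0.07 (log2), and for Cxcl5 it was -0.95 to 1.09.

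The spread inside the groups had a pattern by library. MI_ART 2 was the lowest of its group for 30 of 50 members (60%, against 34.6% of all tested genes), and for 22 of the 26 members that rose in MI. The same library had the lowest sums of the leukocyte, macrophage and neutrophil markers among the infarcted libraries. MI 4 was the highest of its group for 27 of 50 members (54%, against 42.2% of all genes), and MI 2 the lowest for 25 (50%, against 29.6%). MI_ART 3 was the highest of its group for 24 (48%, against 30.3%). The heat map of all libraries shows these columns.

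**Figure D4:**
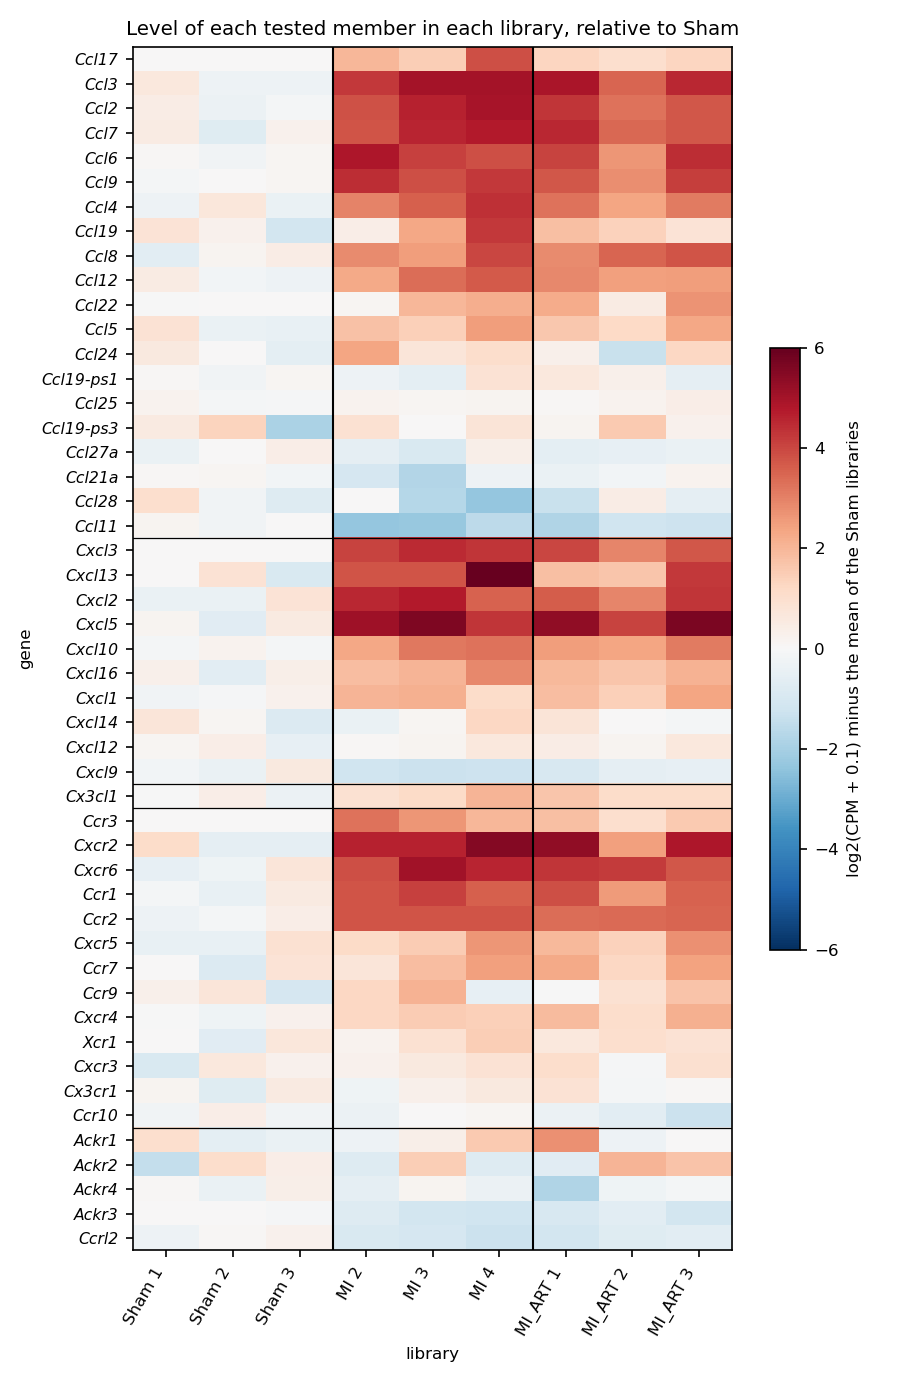
Level of 49 tested members (rows, grouped by role) in each library (columns), as log2(CPM + 0.1) minus the mean of the Sham libraries, with red above and blue below Sham. The colour scale is cut at 6 in both directions. The column of MI_ART 2 is paler than its neighbours for most red rows, and MI 4 holds the darkest cell of Cxcl13.

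Because leukocyte genes rose too, the members' counts were also divided by the summed counts of Ptprc, Coro1a, Laptm5 and Cd53 of the same library. This measure was added after the data were seen, and many ligands are also made by cells that do not express these 4 genes. In MI, 15 of 50 members were higher than Sham by it without overlap, 20 were lower and 15 overlapped, where 2.52% of all tested genes were higher and 84.4% lower. In MI_ART 11 were higher and 22 lower, where 2.34% of all genes were higher and 83.7% lower. Among the 15 higher members in MI were Ccl2, Ccl7, Ccl6, Ccl9, Cxcl5, Cxcr2 and Ccr2. Ptprc was at 5.30 CPM in MI 4, far below its level in the other MI libraries, while Coro1a and Laptm5 were highest there. It was also below every Sham library in MI 4 (11.7, 8.85 and 13.8 CPM in Sham). With Coro1a, Laptm5 and Cd53 alone as the denominator, 12 were higher and 24 lower in MI, where 2.25% and 85.7% of all tested genes were. Ccr2, Ccr1 and Cxcl2 were no longer among the higher members. With Ptprc alone, 15 were higher and 2 lower, against 3.03% and 14.5% of all genes.

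This measure falls for any gene that rose by less than the leukocyte genes did. Ccr2 was at 10.8, 13.5 and 15.4% of the leukocyte counts in Sham, 23.2, 21.2 and 19.7% in MI and 14.8, 29.4 and 17.7% in MI_ART. Cx3cr1 was at 15.9, 9.25 and 18.7% in Sham, 1.49, 2.03 and 2.28% in MI and 2.85, 2.67 and 1.73% in MI_ART. Ccr2 lay above Sham in every MI library, with a ratio of means of 1.62, and overlapped Sham in MI_ART. Without Ptprc in the denominator MI overlapped Sham too, with MI 4 at 20% and Sham 3 at 22.7%. Cx3cr1, whose CPM values overlapped between the groups, lay below Sham in all 6 infarcted libraries, as most genes did. Cxcr4, which rose in CPM, was at 15.6, 14.8 and 17.2% in Sham, 4.79, 5.4 and 4.62% in MI and 6.66, 6.96 and 8.34% in MI_ART, and so was below Sham in every infarcted library. With Ptprc alone as the denominator, MI 4 lay above Sham for both Cx3cr1 and Cxcr4, so that neither was separated in MI. In MI 4 the level of Ptprc was itself below every Sham library. Each of the separations by the 4 genes has an exact two-sided permutation p of 0.1, the smallest possible for 3 against 3.

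**Figure D5:**
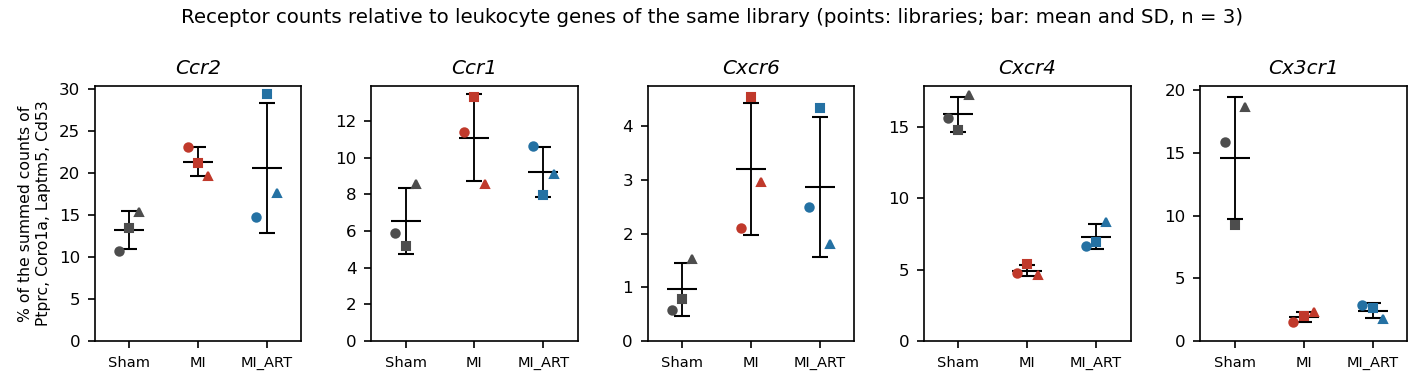
Counts of 5 receptors as a percentage of the summed counts of Ptprc, Coro1a, Laptm5 and Cd53 in the same library (vertical axis, from 0, own scale in each panel) in Sham, MI and MI_ART. Symbols are the 3 libraries of a group in their order, and the bars give the mean and SD. With this denominator Ccr2 is higher in MI than in Sham, while Cxcr4 and Cx3cr1 are lower in all infarcted libraries. Ccr2 overlaps in MI without Ptprc, and Cxcr4 and Cx3cr1 overlap in MI with Ptprc alone.

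Many of the members lie in gene clusters (RefSeq positions, build GRCm38.p6). Of all 50 tested members, 26 rose and 4 fell in MI, and 25 rose and 3 fell in MI_ART. Over all tested genes 18.8% rose and 14.3% fell in MI, and 12.9% rose and 7.41% fell in MI_ART. Whether neighbours shared their calls more often than other members did was not tested. On chromosome 11, Ccl2, Ccl7, Ccl11, Ccl12, Ccl8 and Ccl1 lie between positions 82035577 and 82179812. Of these, 4 rose in both infarcted groups and Ccl11 fell, and Ccl1 had no read in any library. Also on chromosome 11, Ccl5, Ccl9, Ccl6, Ccl3 and Ccl4 lie between 83525778 and 83664683, and all 5 rose. On chromosome 5, Cxcl5, Cxcl3, Cxcl15, Cxcl1 and Cxcl2 lie between 90759298 and 90905938. The 4 that were tested rose, and Cxcl15 had no read. Cxcl9, Cxcl10 and Cxcl11 lie between 92321331 and 92363296 of the same chromosome, where Cxcl9 fell and Cxcl10 rose in MI. On chromosome 8, Ccl22, Cx3cl1 and Ccl17 lie between 94745684 and 94812038. All 3 rose in MI_ART and 2 in MI, where Ccl22 was not called. On chromosome 9, the receptors Ccr9, Cxcr6, Xcr1, Ccr1, Ccr1l1, Ccr3 and Ccr2 lie between 123767211 and 124109140. Of the 6 tested there, 4 rose in both infarcted groups, and Ccr9 and Xcr1 were not called. Cx3cr1 and Ccr8 lie apart on chromosome 9, between 120048683 and 120094906, and Cx3cr1 was not called.

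Genes that act with the chemokines moved in the same direction as most members. Of 30 genes of receptor signalling, 22 rose and 0 fell in MI and 19 rose and 0 fell in MI_ART. Their median log2 fold change in MI was 0.98, against 0.04 for the 19326 genes of the fit. Of those 19326, 18.8% rose and 14.3% fell in MI, while 12.9% rose and 7.41% fell in MI_ART. The same shares are the comparison for the lists that follow. Pik3r5, a regulatory subunit of the phosphoinositide kinase downstream of G proteins, went from 1.18 ± 0.315 CPM (SD, n = 3) in Sham to 18.7 ± 0.991 in MI (adjusted p = 6.09e-05). Dock2, an activator of Rac in leukocytes, went from 3.2 ± 0.349 to 36.8 ± 5.09 CPM (adjusted p = 7.44e-05). Of 13 genes of receptor desensitisation, 10 rose in MI and 8 in MI_ART and 0 fell, with Arrb2, a beta-arrestin, at 7.11 ± 0.702 CPM in Sham and 42.6 ± 13.1 in MI (adjusted p = 0.000209). Of 18 genes that process or present ligands, 12 rose in MI and 10 in MI_ART and 0 fell. Mmp12, a macrophage protease that cleaves chemokines, was at 0.467 ± 0.187 CPM in Sham and 16.4 ± 7.04 in MI (adjusted p = 0.000115). Of 20 tested inducers of chemokine transcription, 14 rose in MI and 9 in MI_ART and 0 fell. Il1b was at 0.334 ± 0.19 CPM in Sham, 11.6 ± 4.7 in MI and 8.44 ± 3.27 in MI_ART (adjusted p = 0.00019 and 0.000456). Several of these genes are themselves expressed mainly in leukocytes, whose markers moved as given above.

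Of the 21 rows not tested, 10 had no read in any library: Ccl1, Ccl26, Cxcl15 and 7 further copies of the symbols Ccl19, Ccl21a, Ccl21b, Ccl21c and Ccl27a. Ccl20, Ccl27b, Ccr4, Ccr8, Ccr6, Xcl1, Cxcl11, Cxcr1 and Ccr1l1 had at most 32 counts in any library. The copy of Ccl21b with reads had 165 counts in MI_ART 1, 178 in MI_ART 2 and 0 elsewhere, and it may hold reads of other Ccl21 copies. Cxcl17 had 89 counts in Sham 1 and at most 12 in any other library.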

How the data were processed

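Gene-level read counts were deposited by the authors as raw values. Per the submitters' processing notes, the tools were HISAT, featureCounts (version 1.5.0-p3) and DESeq (version 1.8.3), on GRCm38. No source used here gives the strand setting or the handling of reads with several matches. All 9 columns of the table were used, and they equal the per-sample files. Titles and treatment labels gave the groups. The deposited descriptions differ in their wording of the species (mice, rats) and of the RNA extraction (TRIzol, RNeasy).

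The fit was made with edgeR 4.0.16 (R 4.3.3), using filterByExpr, which kept 19326 of 55421 genes, TMM scaling, and 1 mean per group over all 9 libraries. Quasi-likelihood F tests were adjusted by Benjamini-Hochberg over all tested genes and called under 0.05. The 95% intervals use 9.80 degrees of freedom, and folds are ratios of mean CPM. A group without reads was set at 3 counts per library, or 0.0322 to 0.0592 CPM. With 3 libraries per group precision is limited (common dispersion 0.150). The script was tested on simulated data.

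Alternatives were other scalings, no filter or at least 1 CPM in 3 libraries, DESeq2 1.42.0, limma-voom 3.58.1, only the 2 groups compared, a replicate block and leaving out libraries. Leaving out MI 4 and MI_ART 3 together, and division by leukocyte genes, were added after seeing the data. Members and gene lists were chosen with earlier results of these data known. Per-library values are given for all tested members except 5 of low level and 1 that is not reported here, because the planned choice by level per transcript length could not be made. Pathway genes named are among the 4 with the smallest p of their list. Positions are from RefSeq (GRCm38.p6), matched by symbol.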

Additional observations from a re-analysis of the deposited data

How the results depend on the processing

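Of the 30 members called in MI against Sham, 23 kept their call and direction under every alternative that tested them, and of the 28 called in MI_ART against Sham, 20 did. No called member changed direction. Of the 20 and 22 members not called, 9 and 6 passed the threshold under at least 1 alternative. Scaling by total counts left 1 member lower in MI and 0 in MI_ART, and called 52.6% and 42.2% of all genes. Without a filter on low counts 18.5% and 10.6% of all genes were called. In MI_ART against Sham, 32.6% of all genes were called in a fit of those groups alone. With 1 library left out at a time the percentage ran from 10.2% to 31.8% there, and the members lower in MI_ART from 1 to 3. In MI_ART against MI, the percentage of genes called was 0.00517% with upper-quartile factors, total counts or limma-voom, 0.00334% without a filter, 0.457% with DESeq2, 0 in a fit of both groups alone, 0 to 0.0150% with 1 library left out, and 0.00508% without MI 4 and MI_ART 3. No member was called there by any alternative. The causes of these shifts were not tested.

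Whether equal numbers in the titles mark paired samples could not be settled. Of 7 pairs with the same number, 0 had a correlation of deviations over 0.1 (-0.035 to 0.093). Pairs with different numbers ran from -0.12 to 0.11, so these correlations cannot exclude a pairing. With a replicate block 25 members were higher and 5 lower in MI, and 26 higher and 3 lower in MI_ART. The block called 30.7% of all genes in MI_ART against Sham and 0.00517% in MI_ART against MI.

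The members whose log2 fold change changed sign under an alternative were all uncalled. In MI against Sham with total counts, Ccr10 was at 0.73, Ccl27a at 0.56 and Ackr4 at 0.62. In MI against Sham with limma-voom, Ccl19-ps1 was at -0.40. In MI against Sham with the replicate block, Ackr2 was at -0.22 and Ccl19-ps1 at -1.09. In MI against Sham without MI 4 and MI_ART 3, Cxcl14 was at -0.26, Ackr1 at -0.16, Cx3cr1 at -0.044 and Ccl19-ps1 at -1.26. In MI_ART against Sham with total counts, Cxcl9 was at 0.038, Ccl27a at 0.22, Ccl28 at 0.087, Ackr4 at 0.16 and Ccl21a at 0.64. In MI_ART against Sham without MI 4 and MI_ART 3, Ccl24 was at -0.40. With 1 library left out at a time, the values in MI against Sham ran from -0.16 to 1.64 for Ackr1, -1.37 to 0.76 for Ackr2, -1.26 to 0.71 for Ccl19-ps1, -0.46 to 1.08 for Ccl19-ps3, -0.24 to 0.21 for Ccr10, -0.13 to 0.46 for Cx3cr1 and -0.26 to 0.81 for Cxcl14. With 1 library left out at a time, the values in MI_ART against Sham ran from -0.41 to 2.48 for Ackr1, -0.14 to 0.90 for Ccl19-ps1, -0.33 to 1.31 for Ccl19-ps3, -0.28 to 0.034 for Ccl21a, -0.40 to 0.84 for Ccl24, -1.44 to 0.26 for Ccl28, -0.12 to 0.56 for Cx3cr1 and -0.18 to 0.59 for Cxcl14.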

Other observations

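Chemoattractants outside the naming rule rose as well. Against Sham, of 12 tested genes of other chemoattractant receptors and ligands, 8 rose in MI and 7 in MI_ART, and 0 fell. Their median log2 fold change in MI was 2.96, against 0.04 for the 19326 genes of the fit. Of those 19326, 18.8% rose and 14.3% fell in MI, while 12.9% rose and 7.41% fell in MI_ART. C3ar1, the receptor of complement C3a, was at 8.15, 8.16 and 11.5 CPM in Sham, 92.4, 109 and 88.3 in MI and 119, 62.5 and 119 in MI_ART (log2 fold change 3.38, SE 0.28, adjusted p = 8.36e-05, edgeR quasi-likelihood test, in MI). Fpr2, a formyl peptide receptor of neutrophils and macrophages, was at 0.0922, 0.197 and 0 CPM in Sham, 3.79, 2.65 and 3.25 in MI and 2.91, 1.31 and 2.07 in MI_ART (log2 fold change 5.05, SE 0.78, adjusted p = 0.0011). No infarcted library of either gene overlapped Sham.

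The platelet chemokines Pf4 and Ppbp, whose symbols do not follow the Cxcl naming, both rose. Pf4 was at 10.2, 9.28 and 13.3 CPM in Sham, 76.6, 83.5 and 135 in MI and 101, 50.3 and 86.8 in MI_ART (log2 fold change 3.17, SE 0.33, adjusted p = 0.000149 in MI by edgeR). Ppbp was at 0.147, 0.316 and 0.766 CPM in Sham, 4.62, 9.14 and 12.3 in MI and 7.02, 4.48 and 6.37 in MI_ART (log2 fold change 4.40, SE 0.59, adjusted p = 0.00051 in MI by edgeR). The sum of 4 platelet and megakaryocyte markers ran from 2.39 to 6.22 CPM in Sham, 12 to 26.1 in MI and 10.4 to 12.4 in MI_ART. The part of these markers in the rise was not tested.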
